A study of Saccharomyces cerevisiae with 28 samples.

Results

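In the main activation screens, guides of the yeast library were compared between the high and the low fluorescence fraction within each round and replicate. These are 16 of the 28 libraries of the series, 8 high and 8 low, from rounds 2, 3, 4 and 5 with replicates 1 and 2 in each. Every library came from Ethanol red, an industrial bioethanol yeast engineered to secrete α-amylase, which carried the activation guide library. The guide was induced in the droplets with anhydrotetracycline, in both fractions alike. A pair is the high and the low library with the same round and replicate number. The labels do not state that both came from one sort. The table held 40890 guides, of which 20411 had a read in any of these libraries and 1166 passed the filter on low counts and were tested. Members were the guides with the same direction in at least 6 of the 8 pairs. With reads scaled by relative log expression (RLE) factors there were 461 of them, 168 higher in the high fraction (14.4% of tested guides) and 293 lower (25.1%). The labels do not say whether the pairs came from separate transformations, so the spread between them may be technical.

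In CRISPR activation, a guide RNA leads a Cas9 that binds DNA without cutting to a promoter, and the activator domain fused to it, here VPR, raises transcription of the gene nearby. Secreted α-amylase releases a fluorescent dye from its substrate inside the droplet, so the fluorescence of a droplet reports the enzyme its cells have secreted. A secreted protein of yeast enters the endoplasmic reticulum, is folded and glycosylated there, and travels through the Golgi apparatus to the cell surface, while misrouted protein goes to the vacuole. The library also aims at non-coding transcripts, the cryptic unstable transcripts (CUTs), which are degraded by the exosome, and the stable unannotated transcripts (SUTs).

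The spacers below are those the pairwise comparison turns on. First come the 5 guides that were higher in at least 6 pairs whichever way the reads were scaled, then the 5 depleted guides with the smallest p. Each is written 5′ to 3′ as in the deposited table, and the capitals mark the last 10 bases, the end that lies next to the PAM, where mismatches are tolerated least.
SLX9: gaaaataaacTTTATGAAGG
GAL80: gcaacaaagtGCAAGCATAG
CTI6: gataattaaaAAGACCTCGG
NAB6: gaaaaagggcAGGTTTGTTG
CUT158: atatatatttAAAAAGTACT
COA3: ggatcattacCTGGACAAAG
CUT848: gtctggctttCTGGCAAATG
NSE5: gcgatagattTCTTTGAAGC
NFU1: ggtgagatgcTACAGACGCG
SUT699: gtttcttgccCGGAGAACTG
The gene of a guide is the one the study's own lists pair with it, and 695 of the 1166 tested guides had one. In the R64 assembly (sacCer3), SLX9 lies on chromosome VII at 643148 to 643780, GAL80 on XIII at 171594 to 172901, CTI6 on XVI at 203421 to 204941 and NAB6 on XIII at 34243 to 37647. COA3 lies on X at 316723 to 316980, NSE5 on XIII at 226994 to 228664 and NFU1 on XI at 361058 to 361828. These are gene coordinates, and the position of the spacer itself was not analysed here.

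The 2 fractions differed in how reads were spread over guides, which bears on every direction below. The high libraries held 205969 to 2382465 reads and the low libraries 50433 to 2464879. A tested guide had a median of 2 to 5 reads in a high library but 5 to 468.5 in a low library. In 944 of the 1166 tested guides (81.0%), a single high library held over 50% of all their high fraction reads, against 327 (28.0%) for a single low library. The RLE factors, which rest on the 389 guides with reads in all 16 libraries, were 0.0304 to 1.08 in the high fraction and 3.12 to 10.6 in the low fraction. The low factor was 2.98 to 348 times the high factor of its pair. RLE factors were applied to the reads of tested guides, and the share to all reads of a library. With that included, the 2 scalings differed within a pair by a log2 of 2.01 (round 2 replicate 2) to 7.46 (round 5 replicate 1). A guide could therefore hold a smaller share of the high library's reads than of the low library's and still count as higher. By the plain share of reads, 5 tested guides were higher in at least 6 pairs (0.429%) and 888 were lower (76.2%). In every pair the RLE scaling raised high against low relative to the share. A guide lower with RLE factors is therefore also lower by share, and a guide higher by share is also higher with RLE factors. That all 293 lower guides and the 5 higher guides had the same direction under both scalings was thus fixed in advance and is no support. Of the 168 higher guides, 52 were lower in at least 6 pairs by share. Higher guides are described first where the share, the stricter scaling for them, also gave that direction. Between libraries, log2 normalised reads of tested guides correlated weakly, with a median r of 0.0791 between high libraries, 0.227 between low libraries and 0.128 between the high and low library of a pair.

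The guides of SLX9, GAL80, CTI6, NAB6 and CUT158 were the 5 that were higher in the high fraction under both scalings. In the paired fit, edgeR's likelihood ratio test with the pair as a block and Benjamini-Hochberg adjustment over all tested guides, 13 guides were enriched (log2 FC over 3, adjusted p under 0.05), which is 1.11% of tested guides. All 5 were among them, and each was higher in 8 of 8 pairs with RLE factors. The fit and the count of pairs use the same reads, so neither supports the other.

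The guide of GAL80, which encodes the repressor that keeps the galactose activator Gal4 silent, had the largest log2 FC. It held 11216 reads in the high library of round 3 replicate 2, 5073 in round 4 replicate 1 and 1500 in round 4 replicate 2, and 4 to 50 reads in the other 5 high libraries. In the low fraction it had 0 reads in 3 libraries and at most 64 in the others. In CPM, reads per 1000000 reads of the library, it ran from 1.90 to 9835 with a median of 52.2 in the high fraction, and from 0 to 43.8 with a median of 5.39 in the low fraction, so the 2 fractions overlapped. The log2 FC was 10.56 ± 2.06 (SE, 8 pairs; adjusted p = 0.000325, edgeR). By share of reads it was higher in 6 of 8 pairs. In round 5 replicate 1 the guide had 10 reads in the high and 38 in the low library, a pair that counts as higher with RLE factors and as lower by share.

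The guide of SLX9, a protein of pre-rRNA processing and small ribosomal subunit export, was higher by share in 7 of 8 pairs, the most of any tested guide. Its high libraries held 8554 reads in round 3 replicate 2, 1780 in round 4 replicate 2 and 1213 in round 4 replicate 1, and 4 to 15 reads in the other 5. Its low libraries held 1 to 111 reads. The log2 FC was 7.21 ± 1.67 (SE, 8 pairs; adjusted p = 0.00541, edgeR). Here too the ranges overlapped, at 1.90 to 7501 CPM in the high and 0.905 to 76.0 CPM in the low fraction.

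CTI6 encodes a PHD finger protein of the Rpd3L histone deacetylase complex. Its guide had the highest reads in 2 different rounds, 5458 in round 2 replicate 1 and 4761 in round 4 replicate 1, with 495 in round 4 replicate 2 and 406 in round 3 replicate 2. The other 4 high libraries held 1 to 7 reads, and the low libraries 0 to 368. Its log2 FC was 9.08 ± 2.29 (SE, 8 pairs; adjusted p = 0.00688, edgeR). The 2 pairs in which its share was lower were both of round 5, with 5 against 368 and 7 against 180 reads.

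The guide of NAB6, a putative RNA-binding protein of mRNAs for cell wall proteins, was abundant in round 4 only, with 3085 reads in replicate 1 and 2385 in replicate 2 of the high fraction. Its remaining high libraries held 4 to 35 reads and its low libraries 0 to 80. The log2 FC was 6.78 ± 1.68 (SE, 8 pairs; adjusted p = 0.00622, edgeR). CUT158 was the only non-coding transcript of the 5. Its high libraries held 7062 reads in round 3 replicate 1, 4817 in round 4 replicate 1 and 1043 in round 5 replicate 2, and 4 to 129 reads otherwise. Its low libraries held 0 to 381 reads, and the log2 FC was 6.12 ± 1.66 (SE, 8 pairs; adjusted p = 0.0184, edgeR). All 5 had most of their high reads in a small number of libraries, which is no particular feature of them. The library with most reads held a median of 55.5% of a guide's high reads in the 5 and of 88.1% in all tested guides. Round 4 replicate 1 was among the abundant libraries for all 5.

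Scaling and test decided these calls. With library size alone, the log2 FC fell to 5.07 for GAL80, 3.99 for CTI6, 1.82 for NAB6, 1.65 for SLX9 and 1.48 for CUT158, and only GAL80 and SPP1 passed the enriched limits. With edgeR's quasi-likelihood test GAL80 alone passed, and without the block 810 guides did. Leaving out a pair gave 5 enriched guides (without round 4 replicate 1) to 22 (without round 3 replicate 1), and without all of round 4 the count was 1. By share of reads, counting only pairs with at least 10 reads in both libraries together, SLX9 alone was higher in 6 pairs.

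The other 8 enriched guides were higher in 6 to 8 pairs with RLE factors but in only 4 or 5 by share of reads. They were the guides of DML1, SPP1, YOR238W, AYR1, SOG2, YLR342W-A, MRPL44 and CUT505. For several of them a single library carried the reads. DML1, needed for the inheritance of mitochondrial DNA, had 78299 of its 83138 high reads in round 5 replicate 1, and 4657 in replicate 2 of that round. Its low libraries held at most 63 reads, and its log2 FC was 9.34 ± 2.33 (SE, 8 pairs; adjusted p = 0.00641, edgeR). The guide of YOR238W, an open reading frame of unknown function, had its maximum in the same library with 71146 reads. SPP1, a subunit of the COMPASS complex that methylates histone H3, had 30113 reads in round 3 replicate 1 and 5008 in round 2 replicate 1, and none in either library of the replicate 1 pairs of rounds 4 and 5. CUT505 had 17449 of 18442 reads in round 4 replicate 1.

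Reads exceeded 450 in 4 high libraries for AYR1 and in 6 for SOG2. AYR1, an acyl-dihydroxyacetone phosphate reductase of the endoplasmic reticulum and lipid droplets, had 1853, 718, 822 and 3034 reads in the 4 high libraries of replicate 2, and 3 to 9 in those of replicate 1. The same guide had 966 reads in the low library of round 3 replicate 2 and 606 in that of round 5 replicate 1. Its log2 FC was 7.21 ± 1.72 (SE, 8 pairs; adjusted p = 0.00622, edgeR). SOG2, a component of the RAM network of cell separation and morphogenesis, exceeded 450 reads in 6 high libraries, from 457 to 19554. It was also abundant in the low fraction, with 2032 reads in round 4 replicate 1 and 1486 in round 5 replicate 1. Its share was higher in 4 pairs and lower in 4, and its log2 FC was 6.19 ± 1.89 (SE, 8 pairs; adjusted p = 0.0443, edgeR). MRPL44, a protein of the large mitochondrial ribosomal subunit, had 8746 reads in the high and 1149 in the low library of round 2 replicate 1. YLR342W-A, a small open reading frame, had 2498 to 3545 reads in 3 high libraries and 3 to 41 in the other 5. Its largest library held 38.7% of its high reads, against 47.1% for AYR1 and 69.9% for SOG2.

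The filter on low counts kept guides mostly through the low fraction. It asked for at least 8.91 CPM in 8 of the 16 libraries, and 1132 of the 1166 tested guides reached that in more low than high libraries. Only 11 reached it in more high than low libraries. Among these 11 were 7 of the 13 enriched guides and 4 of the 5 higher under both scalings. Such guides passed the filter largely through the fraction where they are high, so their level there is no finding by itself. Over all guides of the table, 32 were higher by share of reads in at least 6 pairs, and 27 of these were not tested. Their values are given without a test, and the guides named were chosen after their values were seen. The guide of MCM6, a subunit of the replicative helicase, was higher in 7 pairs and equal, with no reads, in 1. It had 5131 of its 5167 high reads in round 5 replicate 2 and at most 16 in any other high library, against 8 reads in all low libraries together. A guide of TOM22, a receptor of the mitochondrial outer membrane translocase, had 11022 high reads in round 5 replicate 1 and 1034 in round 4 replicate 2, against 15 low reads in all. In 26 of the 32 guides more than 50% of high reads came from a single library, as in 81.0% of tested guides, and none of the 32 exceeded 10 reads in as many as 6 high libraries. Guides of SEC13, a coat protein of vesicles leaving the endoplasmic reticulum, and of BET5, a subunit of the TRAPP tethering complexes, were among the 27. SEC13 had 774 reads in round 4 replicate 2 and 1 to 12 in the other high libraries.

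Of the 293 guides that were lower in at least 6 pairs, 42 were lower in all 8, which is 3.6% of tested guides. In the high fraction the 42 had 2 to 32 reads in all 8 libraries together, with a median of 8, and in the low fraction 681 to 8360 reads with a median of 2179.5. For 37 of them every high library lay below every low library in CPM. The same held for 124 of all tested guides (10.6%), and the reverse for 0 of them. These guides passed the filter through the low fraction, where 37 of the 42 exceeded the limit in all 8 libraries, and they were chosen for their direction in every pair, so neither their low level in the high fraction nor the absence of overlap is a finding about them. The 124 against 0 guides likewise go with a filter that most guides passed through the low fraction.

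The paired fit called 19 guides depleted (log2 FC under -3, adjusted p under 0.05), which is 1.63% of tested guides. All 19 were lower by share in 8 of 8 pairs, and none had over 6 reads in any high library. For lower guides the direction by share adds no support to that with RLE factors, as given above. Their log2 FCs ran from -6.09 to -3.11 with a median of -3.99, against a median of 0.20 over all tested guides. The fold limit of the call fixes that gap in advance. All 19 passed the filter in more low than high libraries, so their few high reads are no finding by themselves either. At so few high reads the log2 FC depends on the prior count. For guides with 3 high reads or fewer the ratio of pooled read shares is given beside the log2 FC. The log2 FC is scaled by RLE factors and the pooled ratio is not, so the 2 differ in size. With library size alone the log2 FC was -10.2 for COA3, -10.4 for CUT848 and -10.2 for NSE5. The ratios carry exact Clopper-Pearson 95% intervals, which treat reads as independent and leave out the spread between pairs. Library size alone gave 811 depleted guides and the quasi-likelihood test 7. The likelihood ratio fit without round 2 gave 0, with 37 guides under the fold limit at an unadjusted p under 0.05.

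COA3 encodes an assembly factor of cytochrome c oxidase in the inner mitochondrial membrane. Its guide had 2 reads in 1 high library, round 2 replicate 2, and none in the other 7. Its low libraries held 1, 5, 62, 167, 177, 352, 521 and 540 reads, a median of 167 CPM. The log2 FC of the COA3 guide was -6.09 ± 1.39 (SE, 8 pairs; adjusted p = 0.00541, edgeR), and its pooled share was 1317 times higher in the low fraction (364 to 10880). The lowest low value was that of round 4 replicate 1, at 0.684 CPM, and the highest high value was 9.71 CPM, so the fractions overlapped through those libraries.

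The guide of CUT848 had 1 read in each of 2 high libraries and 3 to 604 reads in the low libraries. No high value exceeded 0.877 CPM and no low value was under 37.4 CPM. The log2 FC of this guide was -5.17 ± 1.21 (SE, 8 pairs; adjusted p = 0.00541, edgeR), and its pooled share was 1593 times higher in the low fraction (440.5 to 13160). NSE5, a subunit of the Smc5-Smc6 complex of chromosome maintenance, had 3 high reads in all and 3 to 664 reads in each low library. Its log2 FC was -5.01 ± 1.23 (SE, 8 pairs; adjusted p = 0.00622, edgeR), and the pooled share was 918 times higher in the low fraction (314 to 4455). The fractions did not overlap, at 0 to 1.75 CPM against 59.5 to 808 CPM.

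NFU1, a mitochondrial protein of iron-sulphur cluster delivery, had 0 to 3 reads in a high library and 5 to 829 in a low library. The NFU1 guide had a log2 FC of -4.28 ± 1.06 (SE, 8 pairs; adjusted p = 0.00622, edgeR). SUT699 had 0 to 2 reads in a high library and 25 to 982 in a low library, and its log2 FC was -4.24 ± 1.05 (SE, 8 pairs; adjusted p = 0.00622, edgeR). In both, each low library lay above each high library.

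The guide of MTG1, a GTPase of mitochondrial ribosome assembly, was the most abundant of the depleted guides. It had 39 to 2517 reads in the low libraries and 1 to 6 in the high libraries, none of them without a read, which gave 441 to 2004 CPM against 0.476 to 6.82 CPM. Its log2 FC was -3.99 ± 1.21 (SE, 8 pairs; adjusted p = 0.0443, edgeR). BDF1, a bromodomain protein that works with the general transcription factor TFIID, had 4 high reads in all and 2 to 290 reads in a low library. CUT225 had 7 high reads, of which 4 were in round 2 replicate 1, where its low library held its maximum of 1056. The depleted guides further included those of CUT267 and CUT792, of YLR046C, of GET3, the ATPase that delivers tail-anchored proteins to the endoplasmic reticulum, and of FMP49, the last 3 chosen after their values were seen. For 6 of the 19 the lists held no gene.

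The remaining 251 guides lower in 6 or 7 pairs were less extreme. Over all 293, the log2 FC ran from -6.09 to 0.24 with a median of -1.72, and 164 of them were lower by share in all 8 pairs. In 133 of the 293 no high library reached 10 reads (45.4%), against 14.3% of all tested guides. In 70 of them (23.9%) at least 1 high library exceeded 1000 reads, against 61.7% of tested guides and 159 of the 168 higher guides (94.6%). Both groups were chosen for the direction of their high against low reads. Such differences in high reads therefore follow from the choice and are no finding about the guides. No tested guide had every high library above every low library. The support per pair was even for lower guides, from 75.8% of the 293 in round 3 replicate 2 to 89.1% in round 2 replicate 2. For the 168 higher guides it ran from 72.6% in round 5 replicate 2 to 92.9% in round 4 replicate 2. The level of these percentages is set by the rule that members agree in at least 6 pairs, so only their spread over pairs is described. The high library with most of a higher guide's reads was round 4 replicate 1 for 51 of the 168 and round 2 replicate 2, the library with fewest reads, for 3.

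At the limit of 6 pairs, some of the most abundant guides of the screens fell just inside or just outside. The guide of snR63, a small nucleolar RNA, counted as higher in 6 pairs with RLE factors but in 1 by share. It had 621554 reads in the high library of round 4 replicate 2 and 223 to 7960 in the other 7, against 1592 to 51635 in the low libraries. TRX3, the mitochondrial thioredoxin, was higher in 6 pairs as well, with 176913 reads in round 5 replicate 1. Just outside with 5 pairs were BNA7, a kynurenine formamidase of NAD synthesis, at 53 to 241410 reads in a high library, and SUT140, at 10 to 24740. Lower in 6 pairs was FMC1, a mitochondrial protein needed to assemble the ATP synthase at high temperature. It had 1100 reads in the high library of round 2 replicate 2 and 0 to 11 elsewhere, against 40 to 4280 in the low libraries. Lower in 5 pairs were PRY2, a secreted sterol-binding protein, and EMW1, an essential protein of cell wall maintenance, which had 65440 and 18700 reads in the low library of round 3 replicate 1. The other guide just inside the lower limit, for which the lists held no gene, had 17824 reads in the high library of round 2 replicate 1 and 0 to 4 in the other 7. None of these 8 guides was called.

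In the 6 lists of the secretory pathway and autophagy, which hold 39 to 77 genes each, 4 to 7 guides each were tested and none was called. Most listed genes had no tested guide, so the lack of calls is no result about the pathway. GET3, described above as depleted, is in none of these lists. Directions in the gene lists are those with RLE factors. Among the guides of all gene lists used here, only those of GAL80 and CUT158 were higher under both scalings. Of the genes of translocation and folding in the endoplasmic reticulum, 5 had a tested guide, and 1 of these was lower, that of SEC61, the channel of the translocon. It had 1611 reads in the high library of round 2 replicate 2 and 1 to 10 in the other 7, against 30 to 2244 in the low libraries. Its log2 FC was -1.60 ± 1.28 (SE, 8 pairs; adjusted p = 0.586, edgeR). Of the 4 guides for transport from the endoplasmic reticulum to the Golgi, 1 was lower, TRS23. Of the 4 from the Golgi to the surface, 1 was higher, YPT32. In sorting to endosome and vacuole, 5 guides were tested. PEP12, the endosomal syntaxin, was higher and DOA4, the ubiquitin hydrolase that recycles ubiquitin from sorted cargo, was lower, with a log2 FC of -1.14 ± 1.04 (SE, 8 pairs; adjusted p = 0.648, edgeR). Of 7 autophagy guides 1 was higher, ATG10. Of 6 glycosylation guides 1 was lower, MNN2, a mannosyltransferase of the Golgi. The MNN2 guide had 0 to 3 reads in a high library and 2 to 644 in a low library, and its log2 FC was -2.22 ± 1.07 (SE, 8 pairs; adjusted p = 0.256, edgeR). The medians of these 6 lists ran from -1.60 for the first list to 3.04 for autophagy. With 4 to 7 guides each, the counts of 0 or 1 per direction can be read against 14.4% and 25.1% only loosely.

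Among the 8 tested guides for the respiratory chain and its assembly, 2 were higher (COX20 and SCO1, both assembly factors of cytochrome c oxidase) and 3 were lower (COA3, ATP23 and RIP1). These are 25.0% and 37.5% of so few guides that a single guide moves them far. Only COA3 was called, as depleted, against 13 enriched and 13 depleted of the 695 tested guides with a gene. Of the 6 mitochondrial ribosome guides 1 was higher, MRPL44, which was enriched, and 0 were lower. Of the 22 cytosolic ribosome guides, 3 were higher (13.6%) and 5 were lower (22.7%), near the 14.4% and 25.1% of all tested guides, and none was called. RPL11B was lower in 7 pairs, with 0 to 5 reads in a high and 2 to 1865 in a low library. Of the 3 galactose genes with a tested guide, GAL80 was the only one with a direction.

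For SUTs and CUTs the shares lay near those of all tested guides with a gene, of which 16.4% were higher and 23.7% lower. Of 83 guides for SUTs, 13 were higher (15.7%) and 22 were lower (26.5%), with SUT699 depleted and a median log2 FC of 0.14. Of 88 guides for CUTs, 16 were higher (18.2%) and 26 were lower (29.5%), with a median log2 FC of 0.28. CUT158 and CUT505 were enriched, and CUT848, CUT225, CUT267 and CUT792 depleted. These are 2 and 4 of 88 guides, against 13 enriched and 13 depleted of the 695 tested guides with a gene. The difference was not tested. Of the 6 tested snoRNA guides 3 were higher with RLE factors, snR63, snR66 and snR81, and 1 was lower, snR11. None of the 6 was higher under both scalings.

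Guides aimed at the same feature did not always share a direction. Of the 672 features with a tested guide, 22 had 2 or more, and 3 of these held a member in each direction, CUT858, PRS1 and YAR019W-A. One guide of CUT858 was higher in 7 pairs and the other lower in 6. For YAR019W-A, 1 guide was higher in 7 pairs (log2 FC 2.87) and another lower in 7 (log2 FC -3.92), neither called. The pair of DMO1 guides, which overlap in sequence, were both higher, in 6 and 7 pairs. All of these directions are with RLE factors. By share of reads both DMO1 guides were lower in 6 pairs, as was the higher guide of YAR019W-A. The higher guides of CUT858 and PRS1 were higher by share in only 4 and 3 pairs. TOM22 had, beside the untested guide above, a tested guide that was lower in 8 of 8 pairs, with 8 high and 2028 low reads.

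The median GC content was 45% in the 168 higher guides, in the 293 lower guides and in the 705 tested guides with no direction in 6 pairs, against 40% over the library. It was 35% in the 13 enriched and 40% in the 19 depleted guides. A G at the first base was found in 61.3% of higher guides, 69.6% of lower guides and 66.7% of those with no direction, and in 20.3% of the library. A G at the last base, next to the PAM, was found in 66.7% of higher guides, 61.1% of lower guides and 55.5% of those with no direction, and in 36.7% of the library. Most of the gap to the library was thus shared by guides with no direction. The differences between these groups were not tested. A run of 4 T, a stop signal for the polymerase III that often transcribes guides, occurred in 9.52% of higher guides, 14.7% of lower guides and 11.8% of those with no direction.

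The early activation screen, with 2 pairs of its own, was not used to choose members. In it, 73 of the 1166 guides tested in the main screens (6.26%) were higher by share in both pairs, and 516 (44.3%) were lower in both. Of the 168 higher guides, 7 (4.17%) were higher in both early pairs and 71 (42.3%) lower in both. Of the 293 lower guides, 16 (5.46%) were higher and 141 (48.1%) lower in both. The shares of either group lay close to those of all tested guides. None of the 13 enriched guides was higher in both early pairs, and 5 were lower in both. GAL80 had 317 reads in the high library of replicate 2 and 278 in the low library of replicate 1, and 0 in the other libraries. SLX9 had 3 early reads, in 1 low library. Of the 19 depleted guides, 11 were lower in both early pairs (57.9%) and 0 were higher in both. NSE5 had 499 and 19 reads in the early low libraries and 0 in the early high ones, and CUT848 had 1 and 377 against 0. BDF1 went the other way in replicate 1, with 5320 high against 6 low reads, and with 2 against 35 in replicate 2. The difference between screens was not tested.

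In the main repression screens the same spacers direct a Cas9 without cutting activity fused to the repressor Mxi1. Of the 1166 guides, 585 (50.2%) were lower by share in at least 3 of the 4 repression pairs. Among the depleted guides of the activation screens it was 18 of 19 (94.7%), among the 42 lower in all 8 pairs 29 (69.0%), among all 293 lower guides 172 (58.7%), and among the 168 higher guides 78 (46.4%). Of the 13 enriched guides, 8 were lower and 2 were higher in at least 3 repression pairs (15.4%, against 16.4% of all tested guides). NAB6 and YOR238W were the 2 higher ones. No test was made of these counts.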

How the data were processed

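The guide region of plasmids recovered from sorted droplets was amplified and sequenced. The authors split the reads by barcode with Je and mapped them with BWA against the padded spacers. They deposited raw read counts per guide and library, not normalised, with each replicate in its own column. Tool versions are not given in the sources used here. The labels name the build sacCer3.

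The paired comparison of the 16 main activation libraries was run in R 4.3.3 using edgeR 4.0.16. Guides were kept by filterByExpr with the fraction as group (minimum count 10). RLE factors, estimateDisp, glmFit and glmLRT were used with the pair as a block. The prior count was 0.125, and p-values were adjusted by the Benjamini-Hochberg method over the 1166 tested guides. The study's methods take all libraries of a fraction as replicates. A fit without the block was run as an alternative on the guides kept here, which are not those of the study's own filter. Guides were enriched at log2 FC over 3 and adjusted p under 0.05, and depleted at log2 FC under -3. The direction of a pair is the sign of the difference between scaled high and low reads. With RLE factors, reads were divided by the library's sum over tested guides and by its RLE factor. For the share of reads, they were divided by the library total over all guides. The library size used in the fits is the sum over the guides kept by the filter. The SE of a log2 FC is its size over the root of the test statistic of the likelihood ratio. Amplicon reads carried no molecular identifiers and so are not independent. The intervals of the pooled ratios treat reads as independent and leave out the spread between pairs, so they understate the uncertainty. Depth ran from 50433 reads to 2464879.

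A pair shares its round and its replicate number in the labels, which do not name a sort. The data bear the pairing out only weakly. Deviations from the fraction means correlated at -0.0379 to 0.127 within pairs, and 5 of 8 high libraries correlated best with their own low library.

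Gene assignments were taken from the study's guide lists as far as used here, with 2278 guides, which were ordered by the authors' test and are not complete. Symbols and gene coordinates come from the RefSeq table of R64, which matched 501 of the 695 tested guides with a feature. Members, gene lists and tests were chosen with earlier results of these data known. Guides were named by rule: up to 12 higher under both scalings, 12 lower, every enriched guide, the 5 depleted with the smallest p, the 2 most abundant on each side of the limit of 6 pairs, and guides of the lists with 7 or more pairs. A fallback of that rule that needs promoter sequences could not be used. Alternatives were the fit without the block, the quasi-likelihood test, DESeq2 1.42.0, TMM, library size alone, other filters, a prior count of 2, summed replicates, and fits leaving out pairs, rounds or replicates. Value columns left unused numbered 0. Columns of the authors' own comparisons in their lists were not used. Some genes are not reported here.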

Additional observations from a re-analysis of the deposited data

Results flagged for a closer look

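Among 60 sets of 8 libraries 6 held a value far from the others by Dixon's ratio. The usual chance rate of about 1 in 20 does not apply. Many sets are guides chosen from these data, some with almost no high reads, so the count of 6 is only a description. The high library of round 2 replicate 2 had 205969 reads, the fewest of the high fraction. The guides of COA3 and SUT699 reached 9.71 CPM there, from 2 reads each. COA3 was also far lower in the low library of round 4 replicate 1 (0.684 CPM) than in the other low libraries. NSE5 reached 1.75 CPM in the high library of round 3 replicate 2, and SOG2 was at 8.68 CPM in the low library of round 3 replicate 2.

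Of the 42 guides lower in all 8 main pairs, 4 were higher in both early pairs (9.52%, against 6.26% of all tested guides), the opposite direction in every pair of either screen; the difference was not tested. They were guides of OSW2 (9 high and 1343 low reads in the main screens, 5613 and 75 in the early screen), TRX1 (18 and 3007, then 2719 and 1532), TOM22 (8 and 2028, then 2387 and 997) and 1 guide without a gene in the lists (16 and 4348, then 264 and 0). They were chosen after their values were seen.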

How the results depend on the processing

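Most counts changed with the processing. Without the replicate block the fit called 810 guides enriched and 39 depleted, among them all 13 and all 19 of the paired fit. The quasi-likelihood test called 1 and 7, DESeq2 called 127 enriched, TMM factors gave 7 and 93, and library size alone 2 and 811. Without a filter 0 guides were called in either direction by edgeR (1453 higher and 695 lower beyond a log2 FC of 3 at an unadjusted p under 0.05, against 88 and 38 in the paired fit as reported). CPM above 1 in at least 8 libraries gave 66 enriched, of which 8 were among the 13, and CPM above 1 in at least 2 libraries gave 0 depleted (697 at the unadjusted p). Replicates summed within a round gave 51 and 141. Without round 2 the counts were 2 and 0 (37 lower at the unadjusted p), without round 3 they were 22 and 39, and without round 4 they were 1 and 6. Replicate 1 pairs alone gave 5 enriched and replicate 2 pairs alone 0 (117 higher at the unadjusted p), none among the 13. Depleted guides numbered 24 in replicate 1 pairs and 13 in replicate 2 pairs, of which 4 and 1 were among the 19. CPM above 1 in at least 8 libraries gave 15 depleted, 7 of them among the 19. Leaving out a pair gave 5 (without round 4 replicate 1) to 22 enriched (without round 3 replicate 1) and 8 (without round 2 replicate 2) to 29 depleted (without round 3 replicate 1). Without round 5 replicate 2 there were 7 enriched and 12 depleted, and depleted guides numbered 11 without round 2 replicate 1 and 10 without round 4 replicate 1.

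Guides with the same direction in at least 6 pairs numbered 5 higher and 888 lower by share of reads, 83 and 461 with TMM factors, 459 and 1382 both with no filter and with CPM above 1 in at least 2 libraries, and 404 and 865 with CPM above 1 in at least 8. A minimum of 10 reads per pair gave 78 and 185, and a difference over 2-fold gave 89 and 146. Leaving out a pair (at least 5 of 7) gave 232 to 303 higher and 355 to 498 lower, highest without round 3 replicate 1; higher guides were over 1.5 times the main count also without round 4 replicate 1 (262), round 4 replicate 2 (275, with 475 lower) and round 5 replicate 1 (263). Added after seeing the data were 3 settings by share of reads, of which the 10-read minimum gave 1 and 553, no filter 32 and 3282, and both together 1 and 738. By share with that minimum, SLX9, GAL80, CTI6, NAB6 and CUT158 were thus reduced to 1 guide, SLX9.

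For 32 called guides none of 744 alternative log2 FCs changed sign and 360 lost the call. Settings whose filter dropped a guide give no value and are not counted. MRPL44 thus had 19 alternative values and AYR1 and COA3 had 20 each, against 24 for SLX9. With library size alone CUT505 fell to 0.015. Of 1584 values over the 68 guides followed, 22 reversed, in 13 guides, none of them called. With no replicate block they were SUT039 (4.12), SUT818 (5.58), SUT476 (1.10), CUT634 (2.04), DOA4 (1.09), SEC61 (2.80), SUT621 (3.76) and the guide without a gene at the lower limit (7.47), which was also at 0.22 with summed replicates, 0.24 without round 3 and 1.57 in replicate 1 pairs. With library size alone they were snR63 (-2.68), TRX3 (-1.24), BNA7 (-3.93) and SUT140 (-0.073). BNA7 was at -0.22 without round 4 and -0.89 in replicate 2 pairs. Leaving out single pairs moved EMW1 between -2.34 and 0.77, above 0 without either pair of round 2 (0.72 and 0.58) or replicate 1 of round 3, and it was at 2.31 without round 2 and 4.54 in replicate 2 pairs. The cause of these changes was not tested. A tested guide had a median of 2 to 5 reads in a high and 5 to 468.5 in a low library, although the high fraction held more reads in all (11679815 against 8093171).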
